A study of Mus musculus with 8 samples.

Results

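Proteasome genes were examined in the tibialis anterior (TA) muscle, a fast-twitch muscle of the lower leg, of old mice with and without Mybpc2, the gene for fast myosin-binding protein C. The genes were taken by name: every row of the deposited table whose symbol starts with Psm, a letter from a to g and a number was a member, 1 gene apart, which gave 49 members among 16686 genes. Of these 49, 18 encode the 20S core (with its tissue-restricted and inducible forms), 17 the 19S cap, 3 the chaperones that assemble the cap, 4 the chaperones that assemble the core and 5 the 11S and PA200 activators. The remaining 2 are the inhibitor Psmf1 and Psmc3ip, which is named after a cap ATPase that it binds and acts in meiotic recombination.

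RNA came from 4 wild-type mice (WTOld) and 4 Mybpc2 knockout mice (C2-/-Old), all males of the FVBN background labelled as 22 months old, with 1 library per mouse and no treatment named. In the knockout, which all cells of the animal carry, a Neo cassette between LoxP sites stands in place of most Mybpc2 exons. Estimated counts summed to 25425993 to 29747692 per mouse, and 3 counts, the smallest level taken as shown, were worth 0.101 to 0.118 CPM (counts scaled to library size), a limit that covers counting error only. Mybpc2 lay between 4964 and 7392 CPM in WTOld and was 4.35, 4.02, 38.3 and 3.85 CPM in C2-/-Old replicates 1 to 4. The cause of the higher value in C2-/-Old replicate 3 was not tested. Skeletal muscle markers (Ckm, Acta1, Myh4 and 5 others) summed to 189018 to 255883 CPM in the 8 mice. CPM values were scaled with edgeR's TMM factors. WTOld replicate 2 stood apart from the other WTOld mice: it was the highest of the 8 mice in 27.5% and the lowest in 24.5% of the 12542 tested genes. The same shares were not taken for the other mice. Dixon's criterion, described below, flagged 930 of these genes in WTOld, 612 of them for WTOld replicate 2. Values are therefore given with and without that mouse.

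The proteasome degrades proteins that carry ubiquitin chains. Its 20S core is a barrel of alpha and beta rings, and 3 beta subunits of each inner ring hold the catalytic sites. The 19S cap binds ubiquitin chains, removes them and unfolds the substrate, with a base of ATPases and a lid. In skeletal muscle the system removes myofibrillar and other proteins, and it is known for its rise during atrophy.

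All 14 constitutive subunits of the 20S core and all 17 subunits of the 19S cap were transcribed well above the median gene. Levels between genes were compared as the authors' TPM, which is scaled per transcript length and library, averaged over the 8 mice. The median TPM was 160 in the constitutive 20S genes and 139 in the 19S genes, against 7.83 in all tested genes. Together the 49 members took 0.461% to 0.638% of all TPM of a mouse, with the highest share in WTOld replicate 2 and 0.461% to 0.533% in the other 7 mice.

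In the alpha ring, whose subunits form the gate of the core, Psma6 was the highest (160 ± 17 TPM, SD, n = 8) and Psma5 the lowest (61.1 ± 16.1 TPM). The 7 constitutive beta genes lay higher, from Psmb2 (160 ± 32.7 TPM) to Psmb3 (314 ± 41.0 TPM), and the ranges of the alpha and beta means met at 160 TPM. The inducible beta genes were low, with 10.7 ± 1.17 TPM for Psmb10 and 4.66 ± 1.15 TPM for Psmb9. Psma8, the testis form of an alpha subunit, had at most 2 counts and Psmb11, the thymus form of a beta subunit, had at most 2 counts in any mouse.

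In the 19S base, the ATPase genes ranged from Psmc6 (75.0 ± 13.3 TPM) to Psmc3 (193 ± 15.4 TPM). Of the other base genes, Psmd1, a scaffold, had 112 ± 19.2 TPM and Psmd4, a ubiquitin receptor, had 208 ± 37.8 TPM. The lid held both extremes of the cap, with Psmd14, the deubiquitinase, at 47.4 ± 5.94 TPM and Psmd8 at 345 ± 64.0 TPM. The interval that the table gives for Psmd8 overlaps Ggn and Spred3, and the use of strand in counting is not stated, so its count is uncertain to that extent.

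The chaperones of the proteasome, its inhibitor and Psmc3ip lay below every constitutive subunit. The 4 core chaperones ranged from Psmg3 (8.15 ± 2.09 TPM) to Psmg2 (27.7 ± 3.53 TPM) and the 3 cap chaperones from Psmd10 (6.61 ± 1.36 TPM) to Psmd5 (13.1 ± 1.04 TPM). Psmf1, the inhibitor PI31, had 11.7 ± 1.93 TPM, and Psmc3ip had 14.1 ± 1.63 TPM. Among the activators, Psme4 (PA200) was the highest (84.7 ± 13.8 TPM), followed by Psme3, the nuclear 11S subunit (72.3 ± 3.16 TPM). Their ranges of mean ± SD overlapped. Psme1 and Psme2, which form the interferon-inducible 11S ring, had 38.5 ± 7.72 and 36.2 ± 2.58 TPM, a difference within the SD of Psme1. Psme2b had at most 13 counts per mouse and shares 99.4% of 794 aligned bases with Psme2, so its reads cannot be told apart from those of Psme2 with certainty.

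**Figure D1:**
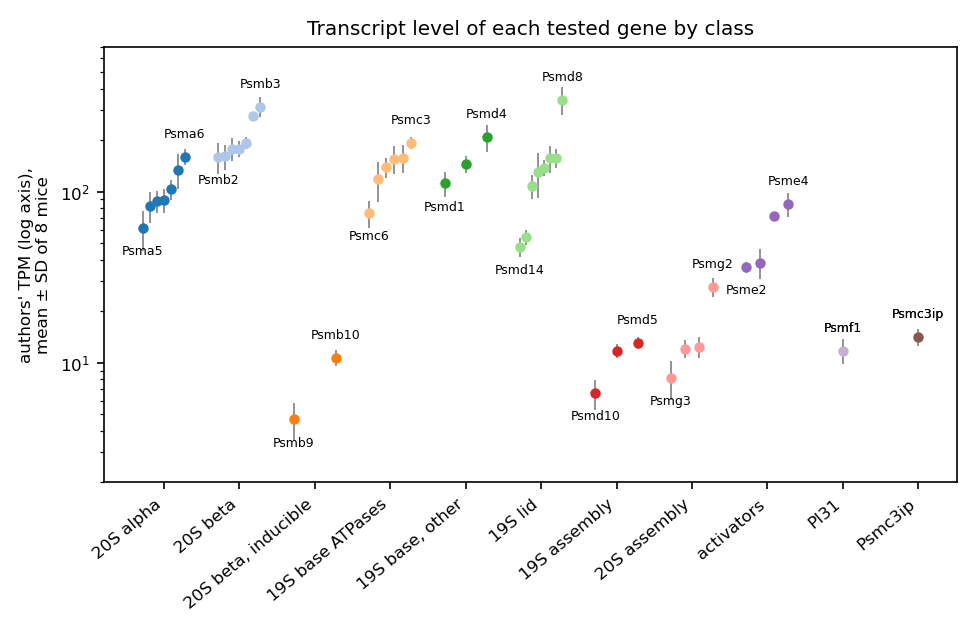
Transcript level of the 46 tested proteasome genes by class, as the authors' TPM on a log axis, with points for the mean and bars for the SD of the 8 mice; the lowest and highest gene of each class are named. Constitutive 20S and 19S genes lie between 47.4 and 345 TPM, and Psmb9 and Psmb10 at 4.66 and 10.7 TPM.

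The promoters of a few members are shown because the subunit genes were high together in 1 mouse. The bases are the last 110 before the RefSeq transcription start (GRCm38.p6), printed 5′ to 3′ along the gene. Capitals mark matches on either strand to TGACNNNGC, the core of the antioxidant response element that factors such as Nfe2l1 bind, to CCAAT or to GGGCGG, the GC box. Psmb5 (chr14:54617996-54618105, reverse strand) and Psmb6 (chr11:70525247-70525356, forward strand) encode catalytic subunits, Psma7 (chr2:180042465-180042574, reverse strand) had the smallest p of all members, and Psmd11 (chr11:80428505-80428614, forward strand) had the highest fold in WTOld replicate 2. The Psmd11 stretch lies inside the interval of that gene (chromosome 11 from 80427732 to 80473248), ahead of a RefSeq start within it.
Psmb5: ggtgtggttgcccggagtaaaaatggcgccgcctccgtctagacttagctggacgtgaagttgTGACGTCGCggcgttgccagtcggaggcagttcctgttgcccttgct
Psmb6: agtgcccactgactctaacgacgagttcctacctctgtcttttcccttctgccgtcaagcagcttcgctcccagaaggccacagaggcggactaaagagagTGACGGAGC
Psma7: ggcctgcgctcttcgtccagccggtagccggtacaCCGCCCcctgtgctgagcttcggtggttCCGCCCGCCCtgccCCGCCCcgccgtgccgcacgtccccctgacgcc
Psmd11: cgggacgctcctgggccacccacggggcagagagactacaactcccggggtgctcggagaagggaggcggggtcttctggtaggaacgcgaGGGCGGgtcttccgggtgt

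The TGACNNNGC core started 47 bases before the start of Psmb5 and 9 bases before that of Psmb6, both on the gene's own strand. Not every member had a match: the last 110 bases before the start of Psmb4 held no TGACNNNGC, CCAAT or GGGCGG. Over 250 upstream bases, which the RefSeq table gave for 41 of the 49 members, it was found in 5 members (Psmb5, Psmb6, Psmc6, Psmd12 and Psmd9), or 12.2%, against 11.5% of 27025 genes. CCAAT was found in 36.6% of the members and 37.5% of all genes, and in 8 of the 14 members of the 20S core that had a sequence and 4 of 14 of the 19S cap. GGGCGG was found in 53.7% of the members and 35.4% of all genes, and in the cap in 9 of 14. All genes here are those with an upstream sequence, expressed in this muscle or not. The members were not set against expressed genes alone. A match of letters is a description and not a binding site.

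The comparison of C2-/-Old with WTOld asked whether loss of fast myosin-binding protein C changed proteasome transcripts in old muscle. No member was called. Of the 49 members, 46 passed edgeR's filter on low counts (Psma8, Psmb11 and Psme2b did not), and by edgeR's quasi-likelihood test 0 of 46 had an adjusted p under 0.05 with a change above 1.5-fold, against 0.0319% of all tested genes. The smallest adjusted p was 0.965. At an unadjusted p under 0.05, 0 of 46 were higher and 0 were lower, where 3.38% of all tested genes were higher and 1.91% lower. No member had groups that did not overlap, against 2.03% of all tested genes that were higher and 1.36% that were lower without overlap. Limma-voom, limma-voom with sample quality weights and DESeq2 also called 0 members, with 0, 1 and 1 members at an unadjusted p under 0.05. The share of all tested genes at that threshold was not taken for these fits, so their counts have no background beside them.

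The log2 fold changes of the subunits were nonetheless mostly on one side. In the 20S core, 14 of the 16 tested members had a log2 fold change below 0, with a median of −0.16 and a range from −0.42 to 0.12. In the 19S cap, 16 of 17 lay below 0, with a median of −0.21 and a range from −0.36 to 0.10. Of all tested genes, 54.2% lay below 0, with a median of −0.02. The other 15 tested members, which assemble, activate or bind the proteasome or replace catalytic subunits, had a median of 0.00, and 9 of the 15 were below 0.

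The size of this lean depended on WTOld replicate 2. Without that mouse, 6 of the 16 core members and 14 of the 17 cap members had a log2 fold change below 0, with medians of 0.04 and −0.03, and 50.5% of all tested genes were below 0. Again 0 of 46 members were called by edgeR's quasi-likelihood test, against 0.0553% of all genes tested in the 7 mice. At an unadjusted p under 0.05, Psmd8 alone was higher and Psme1 alone lower, against 4.05% and 1.84% of all tested genes.

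**Figure D2:**
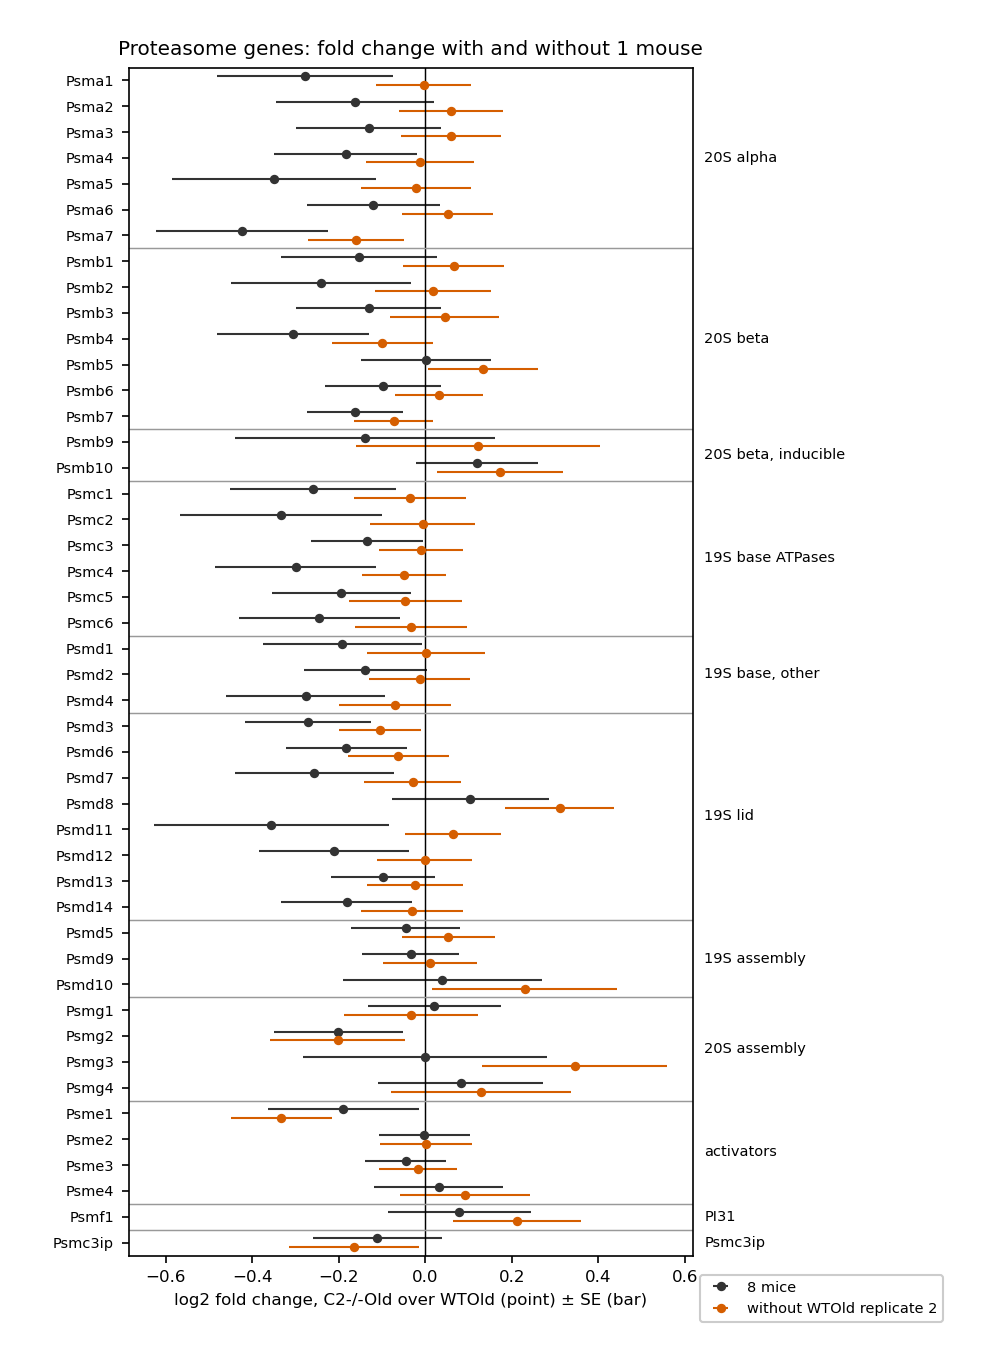
Log2 fold change of C2-/-Old over WTOld for the 46 tested proteasome genes (points) with its SE (bars), from edgeR, in all 8 mice and without WTOld replicate 2. With 8 mice the 20S and 19S genes lie mostly below 0 (medians −0.16 and −0.21), and without WTOld replicate 2 they lie around 0 (medians 0.04 and −0.03).

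The 31 constitutive core and cap genes were highest of the 8 mice in WTOld replicate 2 without exception. Their level in that mouse was 1.20 to 2.33 times the mean of the other 3 WTOld mice, with a median of 1.60, where the median of all tested genes was 0.9997. The excess was over 1.3-fold in 13 of 14 constitutive core genes (not Psmb7, at 1.24) and in 16 of 17 cap genes (not Psmd13, at 1.20), against 23.2% of all tested genes. The inducible pair differed, with 1.77 for Psmb9 and 1.13 for Psmb10. Of the 15 tested members outside these classes, 6 were highest in that mouse (Psmb9, Psmd10, Psmd5, Psmd9, Psme3 and Psmg3), against 27.5% of all tested genes. Psme1 and Psmg1 were lowest there, as were 24.5% of all tested genes.

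The mean log2 CPM of the 20S core, as a difference from its 8-mouse mean, was 0.06, 0.55, −0.26 and −0.07 in WTOld replicates 1 to 4 and 0.01, −0.02, −0.11 and −0.16 in C2-/-Old replicates 1 to 4. That of the 19S cap was −0.08, 0.57, −0.19 and 0.05 in WTOld and −0.16, 0.04, −0.02 and −0.22 in C2-/-Old. Apart from WTOld replicate 2, all mice of both groups lay between −0.26 and 0.06, and the groups overlapped in both subcomplexes. Over the 8 mice the difference of the group means, C2-/-Old minus WTOld, was −0.14 in the core and −0.18 in the cap (log2), where the SD of WTOld was 0.35 and 0.34. Without WTOld replicate 2 the differences were 0.02 and −0.02.

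Core and cap did not have the same order of mice below WTOld replicate 2. WTOld replicate 1 had 14 of 16 core members above their own 8-mouse mean and 2 of 17 cap members. WTOld replicate 4 had 4 of 16 core members and 13 of 17 cap members above it, and C2-/-Old replicate 2 had 6 of 16 and 12 of 17. These counts describe single mice and were not tested.

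**Figure D3:**
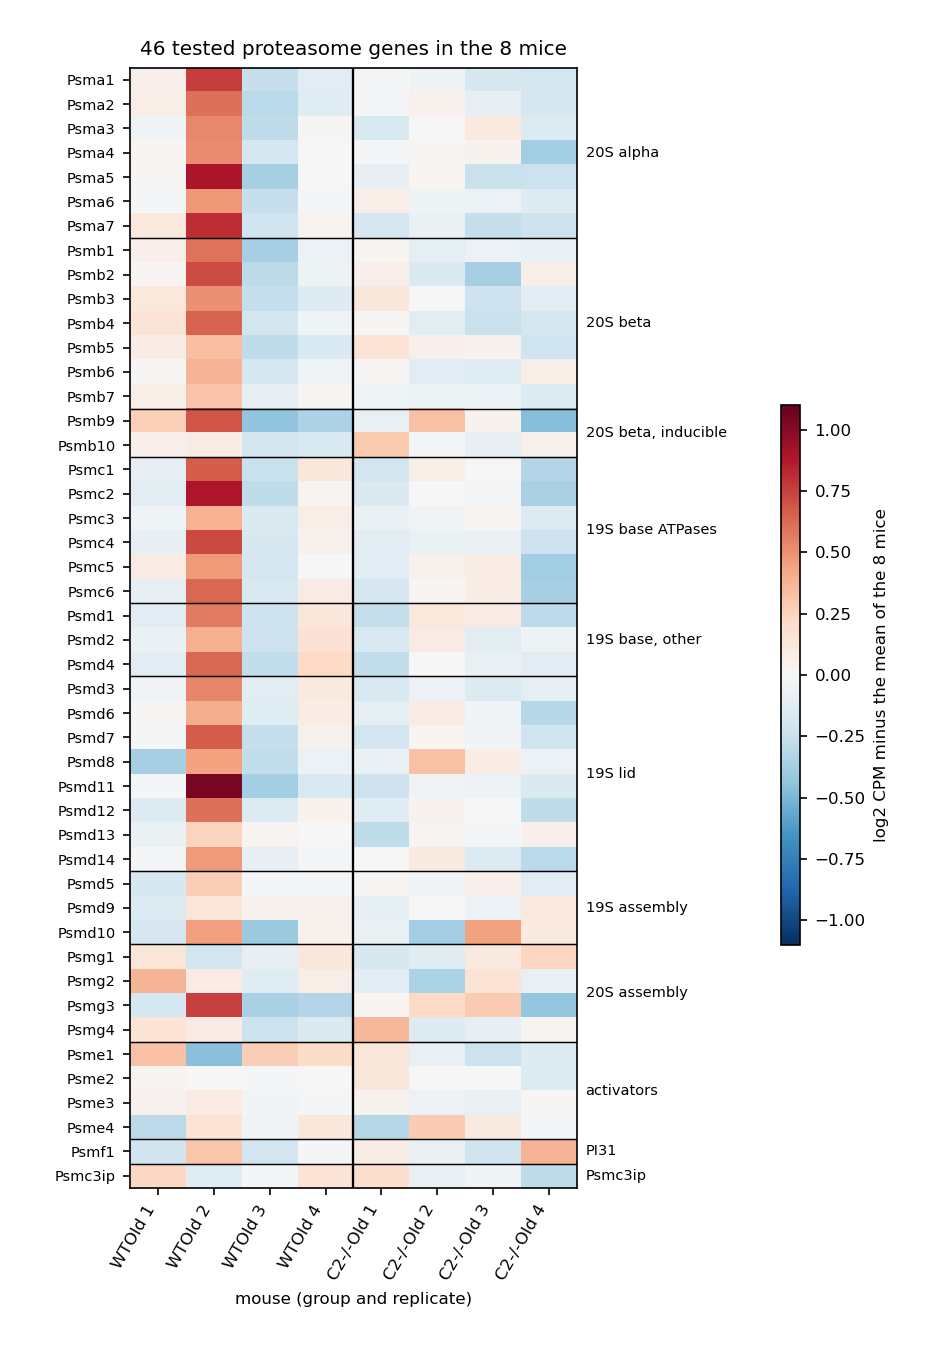
CPM of the 46 tested proteasome genes in each mouse, as log2 CPM minus the gene's mean over the 8 mice (colour), with genes in rows by class and mice in columns. The 14 constitutive core and 17 cap genes are all highest in WTOld replicate 2, while Psme1 and Psmg1 are lowest there.

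Psma7 (gene ID 26444, chromosome 2 from 180036367 to 180042464, GRCm38), an alpha ring subunit, had the smallest p of the core. Its level was 69.4, 113, 55 and 65.5 CPM in WTOld and 56.4, 61.0, 53.5 and 54.8 CPM in C2-/-Old. Of the C2-/-Old mice, replicates 3 and 4 lay just below the lowest WTOld mouse, replicate 3, and the other two lay between it and the rest of WTOld. The log2 fold change was −0.42 ± 0.20 (SE, n = 4 and 4, unadjusted p = 0.0586 and adjusted p = 0.965 by edgeR's quasi-likelihood test), and −0.16 without WTOld replicate 2.

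Psmb4 (gene ID 19172, chromosome 3 from 94884324 to 94886958), a noncatalytic beta subunit, came next in the core. It had 85.5, 121, 67.1 and 74.6 CPM in WTOld and 77.7, 71.3, 65.0 and 67.4 CPM in C2-/-Old, and the groups overlapped. The log2 fold change was −0.31 ± 0.18 (unadjusted p = 0.110 and adjusted p = 0.968 in edgeR), and −0.10 without WTOld replicate 2.

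In the cap, Psmd3 (gene ID 22123, chromosome 11 from 98682554 to 98695978), a lid subunit, had the smallest p. Its level was 174, 261, 166 and 193 CPM in WTOld and 159, 171, 161 and 167 CPM in C2-/-Old, so that 3 of the 4 WTOld mice lay above every C2-/-Old mouse. The log2 fold change was −0.27 ± 0.15 (unadjusted p = 0.0916 and adjusted p = 0.968 in edgeR), and −0.11 without WTOld replicate 2.

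Psmc4 (gene ID 23996, chromosome 7 from 28041702 to 28050092), a base ATPase, had 110, 194, 104 and 121 CPM in WTOld and 108, 111, 111 and 99.98 CPM in C2-/-Old. WTOld replicate 2 was far above the others. The log2 fold change was −0.30 ± 0.19 (unadjusted p = 0.138 and adjusted p = 0.968 in edgeR), and −0.05 without that mouse.

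Psmd11 and Psmc2 were singled out after their values were seen, for their excess in WTOld replicate 2. Psmd11 (gene ID 69077, chromosome 11 from 80427732 to 80473248), a lid subunit that touches the core, had 163, 340, 127 and 147 CPM in WTOld and 141, 161, 158 and 148 CPM in C2-/-Old. Its excess in that mouse was 2.33-fold, the greatest of the members and ahead of Psmg3 (2.06-fold) and Psma5 (2.00-fold), and its log2 fold change between the genotypes went from −0.36 ± 0.27 to 0.06 without it. A pair of transcripts, A730017L22Rik and Gm14048, match Psmd11 with 97.9% and 98.0% identity over 1501 and 1269 bases, so its count is uncertain to that extent. The base ATPase Psmc2 had 101, 202, 90.0 and 111 CPM in WTOld and 97.7, 108, 108 and 85.1 CPM in C2-/-Old, an excess of 2.00-fold in WTOld replicate 2.

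Psmd8, a lid subunit that also falls outside the rule for naming, was the only cap member above 0 with 8 mice. It had 210, 368, 224 and 258 CPM in WTOld and 256, 338, 286 and 258 CPM in C2-/-Old. Without WTOld replicate 2 its log2 fold change was 0.31 ± 0.13 (unadjusted p = 0.0335 and adjusted p = 0.783 in edgeR), where with it the value was 0.10 ± 0.18. The 3 remaining WTOld mice still overlapped the C2-/-Old mice, since WTOld replicate 4 lay above C2-/-Old replicate 1.

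The catalytic subunits were compared next. Psmb5, the chymotrypsin-like subunit (gene ID 19173, chromosome 14 from 54614120 to 54617995), had 82.8, 98.6, 64.4 and 69.6 CPM in WTOld and 86.8, 81.2, 80.3 and 67.2 CPM in C2-/-Old. The groups overlapped almost fully, and the log2 fold change was 0.00 ± 0.15 (adjusted p = 1 in edgeR). The processed pseudogene Gm3375 matches Psmb5 with 98.9% identity over 796 bases, so its count is uncertain to that extent.

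Psmb6, the caspase-like subunit (gene ID 19175, chromosome 11 from 70525357 to 70527858), had 103, 132, 89.8 and 99.6 CPM in WTOld and 103, 93.9, 93.0 and 107 CPM in C2-/-Old, with a log2 fold change of −0.10 ± 0.13. Psmb7, the trypsin-like subunit (gene ID 19177, chromosome 2 from 38588046 to 38643952), had 143, 169, 129 and 139 CPM in WTOld and 132, 131, 131 and 123 CPM in C2-/-Old. WTOld replicate 3 was the only WTOld mouse below 3 of the C2-/-Old mice, and the log2 fold change was −0.16 ± 0.11 (unadjusted p = 0.171 and adjusted p = 0.968 in edgeR).

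Inducible subunits take the place of constitutive ones when interferon-gamma acts or in immune cells, Psmb9 that of Psmb6 and Psmb10 that of Psmb7. Psmb9 (gene ID 16912, chromosome 17 from 34182030 to 34187330) had 2.35, 3.17, 1.46 and 1.56 CPM in WTOld and 1.85, 2.45, 2.02 and 1.42 CPM in C2-/-Old. Psmb10 (gene ID 19171, chromosome 8 from 105932006 to 105938454) had 7.71, 7.84, 6.46 and 6.59 CPM in WTOld and 9.05, 7.36, 6.99 and 7.66 CPM in C2-/-Old. Both overlapped between the genotypes, with log2 fold changes of −0.14 ± 0.30 and 0.12 ± 0.14. The Psmb9 transcript shares 212 bases with Tap1, and the interval of Psmb10 overlaps Ctrl and Slc12a4.

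In TPM, Psmb9 came to 1.68% to 3.31% of Psmb6 and Psmb10 to 3.24% to 4.78% of Psmb7 in single mice. The log2 ratio of Psmb9 to Psmb6 counts was −5.70 ± 0.32 in WTOld and −5.70 ± 0.42 in C2-/-Old (SD, n = 4 each), a difference of −0.01 (two-sided exact permutation test over mice, p = 1, adjusted over 2 ratios 1). The log2 ratio of Psmb10 to Psmb7 counts was −4.21, −4.43, −4.31 and −4.40 in WTOld and −3.87, −4.16, −4.23 and −4.00 in C2-/-Old. Only WTOld replicate 1 lay above a C2-/-Old mouse, replicate 3. The ratio was 0.27 higher in C2-/-Old, with SDs of 0.10 in WTOld and 0.16 in C2-/-Old, but the difference did not pass the test (exact permutation p = 0.0571, adjusted over 2 ratios 0.114), for which 4 mice against 4 allow no p below 0.0286. WTOld replicate 2 had the lowest Psmb10 to Psmb7 ratio, and the difference was between 0.21 and 0.33 when any single mouse was left out.

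**Figure D4:**
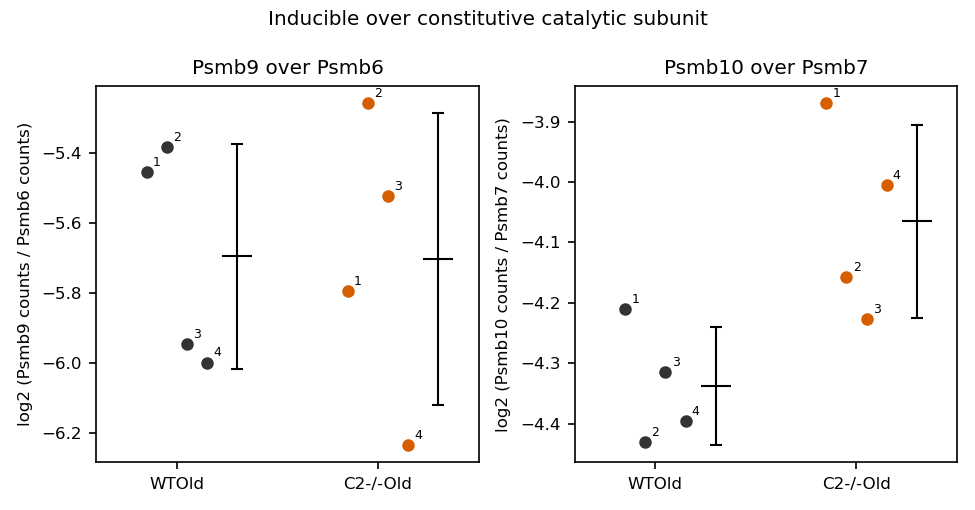
Log2 ratio of the counts of each inducible catalytic subunit to the constitutive one it replaces, by genotype; points are mice with their replicate number, and the line with bar is the mean ± SD of 4 mice. Psmb9 over Psmb6 overlaps fully (means −5.70 and −5.70), and Psmb10 over Psmb7 is −4.34 ± 0.10 in WTOld and −4.06 ± 0.16 in C2-/-Old.

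Among the activators, Psme1 (gene ID 19186, chromosome 14 from 55577859 to 55581527) had 23.5, 13.7, 22.7 and 21.6 CPM in WTOld and 20.6, 17.9, 16.0 and 17.1 CPM in C2-/-Old. WTOld replicate 2 was the lowest of the 8 mice, and the other WTOld mice were above every C2-/-Old mouse. The log2 fold change was −0.19 ± 0.17 (adjusted p = 0.968 in edgeR), and without WTOld replicate 2 it was −0.33 ± 0.12 (unadjusted p = 0.0168, adjusted p = 0.697). Psme1 was then the only member whose groups did not overlap, where 2.82% of all tested genes were lower and 3.64% higher in that way. The interval of Psme1 overlaps Emc9.

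Psme3 varied little, with 105, 108, 99.7 and 101 CPM in WTOld and 104, 97.4, 96.0 and 103 CPM in C2-/-Old (log2 fold change −0.05 ± 0.09). Of the core and cap chaperones, Psmg2 had the smallest p, with 19.5, 15.9, 13.7 and 15.7 CPM in WTOld and 13.7, 11.8, 16.6 and 14.2 CPM in C2-/-Old (log2 fold change −0.20 ± 0.15, unadjusted p = 0.205 in edgeR). Psmg4 had 3.32, 3.17, 2.54 and 2.68 CPM in WTOld and 3.82, 2.72, 2.80 and 3.05 CPM in C2-/-Old (0.08 ± 0.19). All these groups overlapped.

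Genes that work with the proteasome were also high in WTOld replicate 2. Of 23 partners (ubiquitin genes, ubiquitin shuttles, cap-bound proteins and regulators of proteasome genes), 18 were highest of the 8 mice there, against 27.5% of all tested genes. The summed level of the 23 was 10603 CPM in that mouse and 6251 to 7282 CPM in the other 7. By edgeR none of the 23 was called, against 0.0319% of all tested genes. Where 3.38% of all tested genes were higher and 1.91% lower at an unadjusted p under 0.05, 0 of the 23 were higher and 1 was lower. That gene was Akirin2, which carries proteasomes into the nucleus, with 29.2, 82.0, 27.9 and 28.3 CPM in WTOld and 24.6, 27.0, 19.6 and 26.0 CPM in C2-/-Old (log2 fold change −0.78 ± 0.34, adjusted p = 0.919 in edgeR, −0.22 without WTOld replicate 2). Next by p came Rad23b, a ubiquitin shuttle (−0.30 ± 0.15), and Ngly1, which deglycosylates Nfe2l1 (−0.20 ± 0.11). Nfe2l1, the factor known to drive proteasome genes, had 720, 789, 860 and 747 CPM in WTOld and 753, 724, 746 and 930 CPM in C2-/-Old, and was not highest in WTOld replicate 2.

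The muscle ubiquitin ligases Trim63 and Fbxo32, chosen after their values were seen, were also highest in WTOld replicate 2. Trim63 had 682 CPM there and 82.1 to 179 CPM in the other 7 mice, and Fbxo32 had 971 CPM there and 200 to 530 CPM in the others.

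Among 11 interferon-gamma target genes, of which 9 were tested, 0 were called by edgeR, against 0.0319% of all tested genes. At an unadjusted p under 0.05, 0 were higher and 0 lower, against 3.38% and 1.91% of all tested genes. Without WTOld replicate 2, 2 of the 9 were higher at an unadjusted p under 0.05, against 4.05% of all tested genes: Gbp3 (log2 fold change 1.22, unadjusted p = 0.00524, adjusted p = 0.499 in edgeR) and Igtp (0.66, unadjusted p = 0.0219, adjusted p = 0.739). None was then lower. With all 8 mice, the smallest p of these belonged to Igtp (0.53 ± 0.24), Gbp3 (0.52 ± 0.46) and Gbp2 (−0.29 ± 0.31), as log2 fold changes. The list summed to 34.7 to 58.9 CPM in WTOld and 42.5 to 49.7 CPM in C2-/-Old, with the highest value in WTOld replicate 2.

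Markers of other cells differed between the mice too. In WTOld replicate 2, 12 leukocyte markers summed to 99.6 CPM, against 40.8 to 78.8 CPM in the other WTOld and 67.1 to 103 CPM in the C2-/-Old mice, with Cd3e at or under 0.173 CPM in all 8. Of the 11 tested leukocyte markers, edgeR called 0. At an unadjusted p under 0.05, Cd79a alone was higher in C2-/-Old and 0 were lower, against 3.38% and 1.91% of all tested genes. Without WTOld replicate 2, Cd68 alone was higher (log2 fold change 0.90, unadjusted p = 0.0081 in edgeR), against 4.05%. In that mouse 8 fibroblast and tendon markers summed to 322 CPM, the lowest of the 8 mice, and 8 endothelial markers to 254 CPM, against 379 to 530 and 260 to 356 CPM in the other WTOld mice. The fibroblast and tendon list summed to 512 to 734 CPM in C2-/-Old, which overlapped WTOld. By edgeR 0 of its 8 genes were called, against 0.0319% of all tested genes. At an unadjusted p under 0.05, 4 (Dcn, Col1a1, Col3a1 and Tnmd) were higher, against 3.38% of all tested genes. Scx had a log2 fold change of −0.13. The 6 immediate early genes summed to 543 CPM in WTOld replicate 2, 1227 in WTOld replicate 4 and 762 in C2-/-Old replicate 2, and to 34.9 to 83.1 CPM in the other 5 mice. Without these 3 mice, 0 members were called. Of the 31 constitutive core and cap genes, 13 then had a log2 fold change below 0, against 48.6% of all tested genes. WTOld replicate 2 is among the 3, and without that mouse alone 20 of the 31 were below 0, against 50.5% of all tested genes. The part of these other cells and genes in the level of the proteasome genes was not tested, and in whole muscle fewer cells of a type and less RNA per cell cannot be told apart.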

How the data were processed

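RNA of TA muscle from 8 mice (4 WTOld, 4 C2-/-Old, grouped by their labels) was sequenced with 1 library per mouse, and the labels also hold an age that differs from the 22 months used here. According to the methods of the study, reads were aligned with HISAT to GRCm38 and counted with featureCounts. The submitters' processing notes also name Bowtie2 and DESeq2. The authors deposited expected counts per gene (5.5% to 6.53% of values per mouse not whole) and TPM. The counts were rounded before the tests. TPM values, which the authors had scaled by transcript length and library, served only to compare levels between genes. Another 8 columns of values per mouse were not used, and the deposited averages, fold changes, p-values and q-values of the authors' own comparison were not used either.

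The members and gene lists were chosen with earlier results of these data known. By symbol 50 genes fitted the name pattern, and 1 of them, as well as 1 gene of the interferon-gamma list, is not reported here. The main test was edgeR 4.0.16 (quasi-likelihood, TMM factors of 0.929 to 1.03, filterByExpr, R 4.3.3) over 12542 genes with Benjamini-Hochberg adjustment, calling an adjusted p under 0.05 above 1.5-fold. Alternatives were RLE size factors, limma-voom 3.58.1 without and with quality weights, DESeq2 1.42.0, no filter, a minimum of 10 counts per mouse, a cutoff of 0.5 on log2 fold changes, blocks by replicate number, and the omission of each mouse in turn. Leaving out 3 mice with high immediate early genes was added after seeing the data. Ratios of catalytic subunits were tested with exact permutation tests over mice (scipy 1.17.1, Python 3.11.15). The level of a subcomplex is the mean log2 CPM (prior count of 2) of its tested members.

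Values in every mouse were given for the catalytic subunits and for the 2 members with the smallest p of the core, the cap, the activators and the assembly chaperones, and would have been for any member with an unadjusted p under 0.05, above 1.5-fold or without overlap. Of each class the highest and lowest gene were named, and of the partner and interferon-gamma lists the 3 genes with the smallest p. The immediate early genes were given only as a sum. Psmd11, Psmc2, Psmd8, Nfe2l1, Trim63 and Fbxo32 fall outside this rule. Copies were sought with blastn 2.17.0 (97% identity, at least 400 bases) among GENCODE vM21 transcripts, which gave 8 members with a near-identical copy. The intervals of 15 members overlap another gene, and strand use in counting is not given in the sources used here, so these counts are uncertain to that extent. Upstream sequences are from RefSeq (GRCm38.p6).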

Additional observations from a re-analysis of the deposited data

Results flagged for a closer look

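Among 48 groups of 4 mice examined for a mouse far from the other 3 (Dixon's criterion, which chance passes in about 1 of 20 groups), 2 held one. Psmd11 had 340 CPM in WTOld replicate 2, and Psmb7 had 123 CPM in C2-/-Old replicate 4, the lowest value of its group. Over all 46 tested members, the criterion flagged 3 in WTOld, each for WTOld replicate 2, and 2 in C2-/-Old. Of all 12542 tested genes, it flagged 930 in WTOld, 612 of them for WTOld replicate 2.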

How the results depend on the processing

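No member was called under any of the 17 alternatives. Members with an unadjusted p under 0.05 and a lower level numbered 1 with limma-voom quality weights (Psme1), 1 with DESeq2, 1 without a filter on low counts (Psma7 in both), and 0 to 5 when single mice were left out (5 without WTOld replicate 3). Higher ones numbered 0 to 1 when single mice were left out, and 1 without the 3 mice with high immediate early genes (Psmd8 in both). Shares of all tested genes at this threshold were taken only for the main test and without WTOld replicate 2. The counts in the other settings, the block by replicate number included, were not set against a share. The 5 lower members without WTOld replicate 3 were Psma5, Psma7, Psmb4, Psmd3 and Psmd4. In that setting 30 of the 31 constitutive core and cap genes had a log2 fold change below 0, against 51.2% of all tested genes. The median log2 fold change lay between −0.26 and 0.04 in the 20S core, between −0.29 and −0.03 in the 19S cap and between −0.05 and 0.05 in the other members when single mice were left out, each highest without WTOld replicate 2. The difference of the Psmb9 to Psmb6 ratio lay between −0.16 and 0.17, on either side of 0 (0.07, 0.10, 0.02 and 0.17 without WTOld replicates 1 and 2 and C2-/-Old replicates 1 and 4).

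With the replicate number as a block, 1 member (Psma7) had an unadjusted p under 0.05. Deviations of mice with the same number correlated at 0.27, 0.04, −0.05 and 0.02, and not every mouse correlated best with its own number, so the numbers were not taken as pairs.

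Single genes turned over near 0. When single mice were left out, the log2 fold change of Psmb6 lay between −0.16 and 0.032, that of Psmb9 between −0.28 and 0.12, that of Psmd11 between −0.50 and 0.064, that of Psmb5 between −0.077 and 0.13, that of Psmg4 between −0.028 and 0.15 and that of Psme4 between −0.059 and 0.14. The upper ends of Psmb6, Psmb9, Psmd11 and Psmb5 came without WTOld replicate 2. Psmb9 was 0.16 and Psmd11 0.0014 with quality weights, and Psmb6 was 0.075, Psmd11 0.043 and Psmc2 0.033 without the 3 mice. The cause was not tested. With 4 mice a group and an SD of 0.34 (log2) among the WTOld mice in the cap, which WTOld replicate 2 widened, small differences are not detectable. Psmb9, with 1.42 to 3.17 CPM, is limited by depth.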

Other observations

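Other genes, chosen after their values were seen, were also high in WTOld replicate 2, where the core and cap genes had their highest level. The cell cycle inhibitor Cdkn1a had 405 CPM there and 22.6 to 43.1 CPM in the other 7 mice. Mt2, a metallothionein, had 216 CPM against 5.17 to 35.8 CPM, and the glucocorticoid target Fkbp5 had 205 CPM against 19.6 to 67.9 CPM. Sqstm1, an autophagy receptor for ubiquitin chains, had 1376 CPM against 426 to 662 CPM, and Txnrd1, a target of the antioxidant response, had 193 CPM against 69.0 to 84.4 CPM. The small heat shock gene Hspb1 had 500 CPM against 127 to 205 CPM. These values belong to 1 mouse and were not tested.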
